A study of Drosophila melanogaster with 12 samples.

Results

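The genes described here encode the proteins of Drosophila seminal fluid, above all those of the male accessory gland. They were taken by name from the deposited expression table, as the genes named Acp with a cytological position, Sfp with a number, or Mst57D, leaving out the cuticle protein gene Acp65Aa. Only genes above 0 FPKM in at least 1 group were kept. This gave 47 of the 15104 genes, namely 17 Acp genes, 27 Sfp genes and 3 Mst57D genes. The libraries came from heads of adult flies of the 2202U background, with the sex not given in the labels. A GFP-tagged ribosomal protein L10A (UAS-GFP-L10A) was expressed under Elav-Gal4 for neurons, repo-Gal4 for glia or takeout-Gal4 for the fat body, each transgene in 1 copy. RNA bound to the tagged ribosomes was recovered with a GFP antibody (IP), and an aliquot of the same lysate of 1000 heads was the Input. Every group carried the tagged protein, and no group without a driver or tag was analysed here. Where else each driver is active was not measured.

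The 12 samples form 6 groups of 2 biological replicates: neuron IP and Input, glia IP and Input, and fat body IP and Input. The authors deposited 1 FPKM, a level scaled to transcript length and library size, per gene and group, combined over both replicates. No value below therefore has a standard deviation or an n, the depth is unknown, and no difference can be set against the spread between replicates except through the q-values that the authors gave for the 3 pairs of IPs. Log2 ratios are of FPKM plus 1, and a gene was called higher or lower from 2-fold upwards where both compared groups were above 0. A gene under 1 FPKM in both compared groups cannot be called by this rule. Plain ratios are of FPKM with nothing added. In bulk RNA, fewer cells of a type and less RNA per cell cannot be told apart.

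The accessory glands are a pair of secretory organs in the male abdomen that make most of the fluid transferred with sperm. Their small secreted proteins change the behaviour and physiology of the mated female, raising egg laying, lowering receptivity and helping sperm storage. The ejaculatory duct and bulb, further down the male tract, add their own peptides and proteins. None of these organs is part of the head.

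Glial and fat body markers were higher in their own IP than in its Input, and the 4 neuronal markers were lower. repo, the glial homeodomain factor, had 141 FPKM in the glia IP against 22.4 in the glia Input. Lsd-1, the perilipin gene of fat, had 653 FPKM in the fat body IP against 80.6 in its Input. The neuronal gene elav had 3.48 FPKM in the neuron IP against 15.0 in its Input, although the neuron IP was the highest of the 3 IPs. The log2 of the plain IP/Input ratios of the well expressed genes lay above 0 as a whole, with a median of 0.42 in the neuron, 0.52 in the glia and 0.86 in the fat body comparison.

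The seminal protein transcripts were detected in every group and were most abundant in the 2 groups of the glia driver. Their summed level was 2808 FPKM in the glia IP and 1866 in the glia Input. It was 120 FPKM in the neuron IP against 496 in the neuron Input, and 251 in the fat body IP against 476 in the fat body Input. The sums were 0.334% of all FPKM in the glia IP and 0.327% in the glia Input, against 0.0143% to 0.0822% in the other 4 groups. For 33 of the 47 genes the highest of the 6 groups was the glia Input, for 13 it was the glia IP, and for 1, Sfp78E, it was the neuron IP. The neuron IP was the lowest group for 43 genes.

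**Figure D1:**
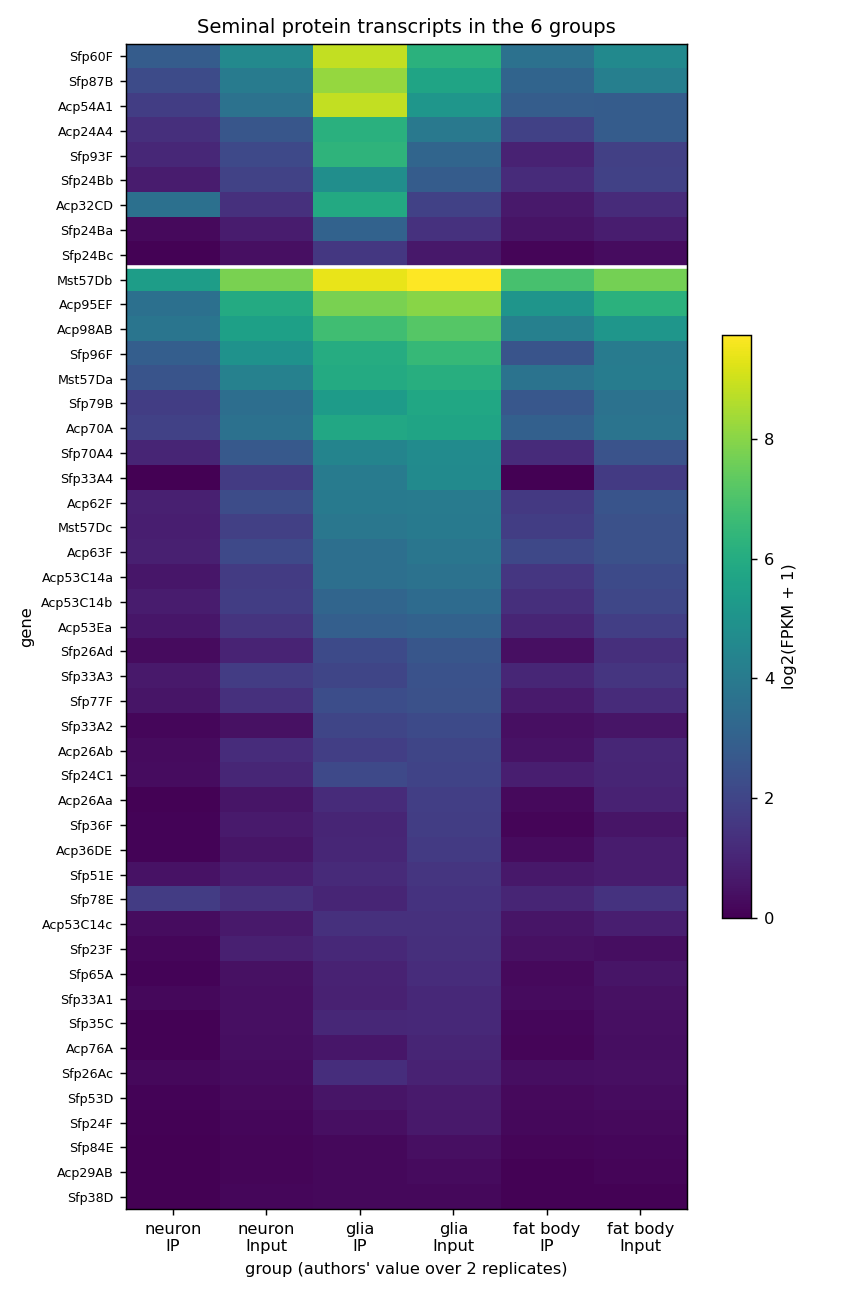
Level of each of the 47 seminal protein genes, as log2 of FPKM plus 1 (colour), in the 6 groups (columns). The 9 genes above the white line had a glia IP of at least 2 times the glia Input, and both blocks are ordered by the glia Input, where Mst57Db reaches 848 FPKM.

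**Figure D2:**
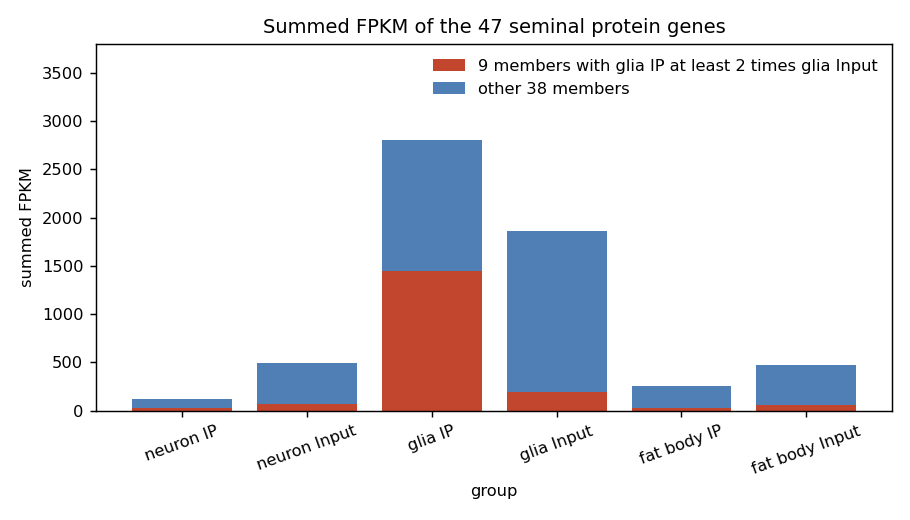
Summed FPKM of the 47 genes in each group, with the 9 genes whose glia IP was at least 2 times the glia Input in red and the other 38 in blue. The 9 genes sum to 1450 FPKM in the glia IP and to 190 in the glia Input.

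The lysates were compared first, because every IP ratio is set against one of them. The glia Input held more seminal protein transcript than the other Inputs for 47 of 47 genes, against 27.7% of all genes above 0 in the 3 Inputs. It was at least 2-fold higher than the neuron Input for 26 genes (background 8.32%) and than the fat body Input for 25 (background 6.48%), and lower for 0 in either comparison (background 0.803% and 0.269%). Both conditions together held for 24 of the 47 genes (background 6.38%). Between the neuron and fat body Inputs, 0 of 47 genes were past 2-fold in either direction with 1 FPKM added (background 0.424% higher and 0.344% lower). With nothing added, the ratio of neuron to fat body Input was 3.07 for Sfp38D and 2.73 for Sfp23F, both under 1 FPKM in these Inputs.

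Over the 47 genes the plain ratio of glia to neuron Input had a median of 3.55, with quartiles of 2.61 and 4.23, and the ratio of glia to fat body Input a median of 3.14. Sfp33A4 had the largest ratios, at 11.0 and 11.2, and Sfp78E the smallest, at 1.14 and 1.01. The log2 ratio of FPKM plus 1 had a median of 1.07 against the neuron Input and 1.11 against the fat body Input, where the medians of all genes were -0.16 and -0.05.

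Many transcripts of other body parts were also higher in the glia Input. The summed level of 19 testis and sperm genes was 601 FPKM in the glia Input, against 115 in the neuron Input and 153 in the fat body Input, and 13 of the 19 were at least 2-fold above the neuron Input (background 8.32%) and 13 above the fat body Input (background 6.48%). The sum of 27 gut protease genes was 91.6 FPKM there, against 15.4 and 24.2 in the neuron and fat body Inputs. At 2-fold 8 of 25 gut protease genes were higher there than in the neuron Input and 6 of 24 than in the fat body Input. Of 4 flight muscle genes, Act88F, the flight muscle actin, had 39.3 FPKM in the glia Input against 5.35 and 4.09, while Strn-Mlck had 55.1 against 55.7 and 53.7. The 19 ovary and eggshell genes summed to 8.32 FPKM in the glia Input against 4.70 and 5.48, with none of them at 5 FPKM in any group. roX1, a noncoding RNA of male dosage compensation, was lower in the glia Input, at 11.9 FPKM against 24.6 in the neuron and 23.6 in the fat body Input, and roX2 had 4.89 against 10.9 and 7.91. Yp1, a yolk protein gene of female fat body, had 9755 FPKM against 8750 and 8361. The part of these tissues in the seminal protein levels was not tested.

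Acp70A encodes sex peptide, which lowers the receptivity of mated females and raises their egg laying. Acp70A (FBgn0003034) had 2.70 (neuron), 55.9 (glia) and 6.97 (fat body) FPKM in the IPs and 11.4 (neuron), 50.9 (glia) and 12.3 (fat body) FPKM in the Inputs. Its level was high in both glia-driver groups and low in the 4 others. Acp62F, a protease inhibitor gene, had 0.797 (neuron), 14.7 (glia) and 2.03 (fat body) FPKM in the IPs and 3.82 (neuron), 15.6 (glia) and 4.81 (fat body) FPKM in the Inputs. Acp26Aa, the gene of the ovulation hormone ovulin, had 0.0480 (neuron), 1.28 (glia) and 0.201 (fat body) FPKM in the IPs and 0.465 (neuron), 2.54 (glia) and 0.904 (fat body) in the Inputs. Acp36DE, a sperm storage protein gene, had 0.0624 (neuron), 1.08 (glia) and 0.228 (fat body) FPKM in the IPs and 0.481 (neuron), 2.15 (glia) and 0.690 (fat body) in the Inputs. Both thus stayed under 3 FPKM in every group, as did the serpin gene Acp76A, and the lectin gene Acp29AB had 0.206 FPKM or less.

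The Mst57D genes, male-specific transcripts of the accessory gland, included the most abundant of all. Mst57Db (FBgn0011669) had 41.8 (neuron), 680 (glia) and 119 (fat body) FPKM in the IPs and 218 (neuron), 848 (glia) and 208 (fat body) FPKM in the Inputs. It alone made up 24.2% of the summed level in the glia IP and 45.5% in the glia Input. Its neighbour Mst57Da had 4.84 (neuron), 60.9 (glia) and 12.2 (fat body) FPKM in the IPs and 18.3 (neuron), 68.4 (glia) and 16.1 (fat body) in the Inputs. Mst57Dc had 0.785 (neuron), 13.6 (glia) and 2.39 (fat body) FPKM in the IPs and 2.63 (neuron), 15.3 (glia) and 4.39 (fat body) in the Inputs. All 3 genes had the glia Input highest, the glia IP next and the neuron IP lowest.

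Other abundant genes of the large Acp and Sfp groups follow. Acp95EF had 11.1 (neuron), 219 (glia) and 33.1 (fat body) FPKM in the IPs and 60.3 (neuron), 252 (glia) and 73.7 (fat body) in the Inputs. Acp98AB had 12.8 (neuron), 105 (glia) and 17.6 (fat body) FPKM in the IPs and 44.8 (neuron), 143 (glia) and 33.7 (fat body) in the Inputs. Sfp96F, which lies between Mst57Dc and Mst57Db, had 6.43 (neuron), 63.9 (glia) and 4.77 (fat body) FPKM in the IPs and 29.9 (neuron), 91.5 (glia) and 15.4 (fat body) in the Inputs. In each of them both glia-driver groups stood above all 4 others. Sfp79B had 2.43 (neuron), 39.3 (glia) and 5.25 (fat body) FPKM in the IPs and 10.4 (neuron), 54.6 (glia) and 11.6 (fat body) in the Inputs. Sfp70A4 had 1.02 (neuron), 19.9 (glia) and 1.27 (fat body) FPKM in the IPs and 5.50 (neuron), 24.8 (glia) and 4.68 (fat body) in the Inputs. Acp63F had 0.828 (neuron), 10.7 (glia) and 3.27 (fat body) FPKM in the IPs and 3.37 (neuron), 13.1 (glia) and 4.29 (fat body) in the Inputs. In these too the glia IP was under the glia Input. Sfp33A4 had 15.6 FPKM in the glia IP and 2.20 (neuron), 24.2 (glia) and 2.16 (fat body) in the Inputs, and was listed at 0 in the neuron and fat body IPs.

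The Acp53 genes lie side by side in the genome and had like levels. Acp53C14a had 0.488 (neuron), 10.6 (glia) and 1.91 (fat body) FPKM in the IPs and 2.27 (neuron), 11.7 (glia) and 3.53 (fat body) in the Inputs. Acp53C14b had 0.685 (neuron), 7.97 (glia) and 1.51 (fat body) FPKM in the IPs and 2.40 (neuron), 9.64 (glia) and 3.23 (fat body) in the Inputs. Acp53Ea had 0.501 (neuron), 6.80 (glia) and 1.01 (fat body) FPKM in the IPs and 1.73 (neuron), 7.41 (glia) and 2.45 (fat body) in the Inputs. The last gene of the cluster, Acp53C14c, was lower, with at most 1.56 FPKM. Sfp26Ad had 0.205 (neuron), 3.61 (glia) and 0.314 (fat body) FPKM in the IPs and 0.932 (neuron), 5.02 (glia) and 1.45 (fat body) in the Inputs, again with both glia-driver groups highest.

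The other 23 genes stayed under 5 FPKM in every group, and 5 of them under 1. Their values ran over 0.00552 to 2.33 FPKM in the neuron IP against 0.0894 to 2.28 in its Input. In the glia groups they ran over 0.144 to 3.99 FPKM in the IP against 0.143 to 4.41 in the Input, and in the fat body groups over 0.0283 to 1.04 in the IP against 0.0368 to 1.85 in the Input. Their medians were 1.15 FPKM in the glia IP and 1.49 in the glia Input, against 0.0731 to 0.455 in the other groups. By the median both glia-driver groups thus stood highest for the low genes too, though not for Sfp78E, which was highest in the neuron IP.

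In the neuron IP the seminal protein transcripts were scarcer than in the lysate. Of the 46 genes above 0 in both, 20 were at least 2-fold lower (background 10.7%) and 1 was higher (background 15.5%). The 46 plain IP/Input ratios had a median of 0.235, with quartiles of 0.184 and 0.294. The 4 neuronal markers had plain ratios of 0.231 (elav), 0.163 (Syt1), 0.145 (Appl) and 0.840 (n-syb) there. A low ratio in this comparison was thus shared by elav, Syt1 and Appl, and much less by n-syb. The log2 ratio was -2.35 for Mst57Db, -2.34 for Acp95EF and -2.05 for Sfp96F. The gene that was higher was Acp32CD, with a log2 ratio of 2.26. Sfp78E had a plain ratio of 1.59 but did not reach 2-fold. With the columns scaled by their medians 23 genes were lower (background 18.8%), and all 20 were among them.

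In the fat body IP the direction was the same, and in FPKM as deposited the size was smaller. As a share of all FPKM, the sum went from 0.0822% in the fat body Input to 0.0147% in the IP. In the neuron groups it went from 0.0779% to 0.0143%, so the smaller size depended on the scaling. The 46 plain ratios had a median of 0.490 with quartiles of 0.395 and 0.630, and the IP was under the Input for 45 of the 47 genes. At 2-fold 5 genes were called lower (background 8.38%) and 0 higher (background 22.6%). They were Acp95EF, Sfp70A4, Sfp79B, Sfp87B and Sfp96F, with Sfp96F the lowest at -1.51. The 5 of 46 are near the background share, but genes under 1 FPKM in the fat body Input could not be called lower. The same limit holds for the background. The count was 19 with the columns scaled by their medians (background 20%) and 27 with their totals equalised (background 35.8%).

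By plain ratios of FPKM in the glia IP, the genes fell into a large block near the lysate level and a small block far above it. For 38 genes the plain ratio of glia IP to glia Input lay between 0.427 and 1.55, with a median of 0.788 and quartiles of 0.687 and 0.899. For the remaining 9 it lay between 3.51 and 21.9, with a median of 5.75. As a share of all FPKM, the 38 genes summed to 0.162% in the glia IP against 0.293% in the glia Input. At the edges of the gap stood Sfp24C1 at 1.18 and Sfp26Ac at 1.55 on one side, and Sfp24Bc at 3.51 and Sfp24Ba at 4.48 on the other. On the log2 scale of FPKM plus 1, 8 of the 47 genes were at least 2-fold higher (background 15.1%) and 0 lower (background 15.9%), and Sfp24Bc, at 0.93, missed the call. As a share of the 47 genes, the 8 are near the background. Under median scaling 8 genes were higher (background 8.04%) and 2 lower (background 24.6%). Under total scaling 8 were higher (background 5.81%) and 11 lower (background 29.9%), and the same 8 genes were higher under both. The direction for the 47 genes turned on the lysate taken, since against the mean of the neuron and fat body Inputs, a comparison added after the values were seen, 28 genes were higher in the glia IP (background 12.7%). The median log2 ratio was then 1.23, against -0.18 with the glia Input. The 9 genes were singled out after their values had been seen, and nothing was tested with them.

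**Figure D3:**
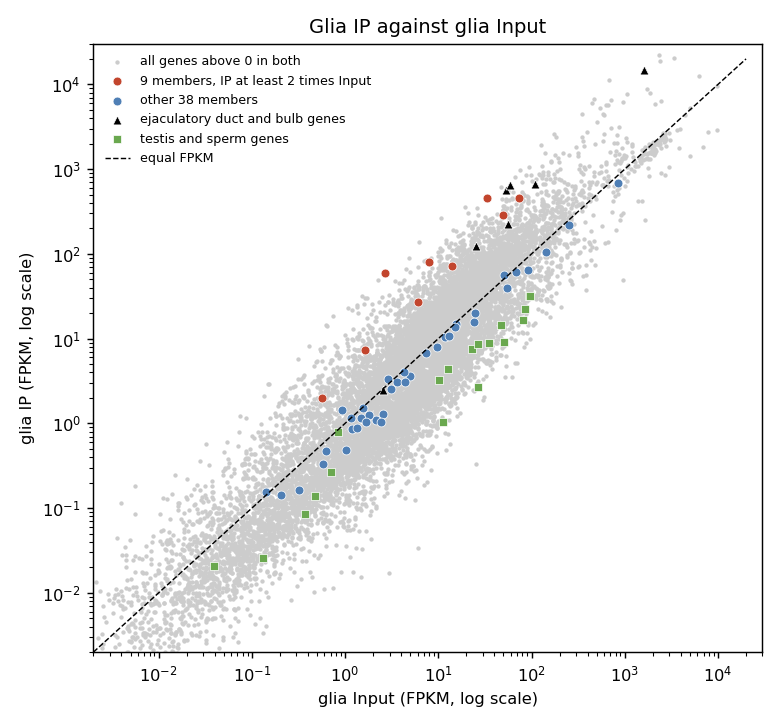
Glia IP against glia Input, both in FPKM on log scales, for all genes above 0 in both (grey) and for the seminal protein, ejaculatory duct and bulb, and testis and sperm genes; the dashed line marks equal FPKM. The 9 red genes and 6 of the 7 detected duct and bulb genes lie well above the line, the other 38 seminal protein genes lie near it and most testis genes lie under it. The places of the 9 and the 38 follow from how they were split, by this same ratio.

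Acp54A1 (FBgn0083936) had 459 FPKM in the glia IP against 33.4 in the glia Input, a log2 ratio of 3.74. It had 2.44 and 6.27 FPKM in the neuron and fat body IPs against 11.9 and 6.19 in their Inputs. Sfp60F (FBgn0259968) had 456 FPKM in the glia IP against 73.8 in the glia Input, and 6.06 (neuron) and 11.5 (fat body) in the other IPs against 22.9 and 23.5 in the neuron and fat body Inputs. These were the most abundant of the 9 in the glia IP, and in the neuron-driver groups both were lower in the IP. Sfp87B (FBgn0259975) had 287 FPKM in the glia IP against 49.9 in the glia Input, and 3.66 (neuron) and 7.80 (fat body) in the other IPs against 15.7 and 17.5 in the neuron and fat body Inputs. Sfp93F (FBgn0261060) had 80.0 FPKM in the glia IP against 8.03 in the glia Input, and 1.10 (neuron) and 0.919 (fat body) in the other IPs against 3.40 and 2.58 in the neuron and fat body Inputs. Acp24A4 (FBgn0051779) had 71.4 FPKM in the glia IP against 14.2 in the glia Input, and 1.49 (neuron) and 2.67 (fat body) in the other IPs against 5.10 and 6.05 in the neuron and fat body Inputs.

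The 3 Sfp24B genes of the set, of which Sfp24Bb and Sfp24Bc are neighbours, all belonged to the small block. A further gene, Sfp24Bd, lies between Sfp24Ba and Sfp24Bb in the later BDGP6 annotation and was not among the 47 genes. Sfp24Bb had 27.3 FPKM in the glia IP against 6.09 in the glia Input, and 0.691 (neuron) and 1.31 (fat body) in the other IPs against 2.78 and 2.68 in the neuron and fat body Inputs. Sfp24Ba had 7.38 FPKM in the glia IP against 1.65 in the glia Input, and 0.182 (neuron) and 0.433 (fat body) in the other IPs against 0.651 and 0.732 in the neuron and fat body Inputs. Sfp24Bc had 1.97 FPKM in the glia IP against 0.562 in the glia Input. The plain glia IP/Input ratio was 4.48 for Sfp24Ba, 4.49 for Sfp24Bb and 3.51 for Sfp24Bc. Sfp24C1 had 3.38 FPKM in the glia IP against 2.86 in the Input and belonged to the large block.

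Acp32CD (FBgn0023415) differed from all the others. It had 11.0 (neuron), 59.5 (glia) and 0.577 (fat body) FPKM in the IPs and 1.52 (neuron), 2.71 (glia) and 1.28 (fat body) in the Inputs. Its plain IP/Input ratio was 7.26 for neurons and 21.9 for glia, the highest of the 47 genes in both. In the glia Input it stood only 1.78 and 2.11 times above the neuron and fat body Inputs, near the low end of the range for these genes.

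The 9 genes and the others were split by the glia IP/Input ratio, so their gap there was set by the choice. In the other ratios their medians lay closer together, which tests nothing about the blocks. The neuron IP/Input ratios of the 9 had a median of 0.265 and those of the others 0.230, and the fat body ratios had medians of 0.450 and 0.543. The glia Input exceeded the neuron Input by a median of 2.53 for the 9 and of 3.79 for the others. In all, 6 of the 47 genes were at least 2-fold higher in the glia IP and at least 2-fold lower in the neuron IP than in the Input, a pattern found in 0.63% of genes above 0 in all 6 groups.

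Genes of the ejaculatory duct and bulb were also far above the lysate in the glia IP. Of 9 such genes 7 were detected and 6 of these were at least 2-fold higher there, where 15.1% of all genes were. Dup99B, a duct peptide related to sex peptide, had 7.28 (neuron), 651 (glia) and 14.8 (fat body) FPKM in the IPs and 32.9 (neuron), 59.1 (glia) and 30.1 (fat body) in the Inputs. Anp, the andropin gene of the duct, had 2.79 (neuron), 567 (glia) and 7.56 (fat body) FPKM in the IPs and 15.7 (neuron), 53.4 (glia) and 18.4 (fat body) in the Inputs. PebII, which encodes a protein of the ejaculatory bulb and lies next to Sfp60F, had 8.39 (neuron), 672 (glia) and 16.3 (fat body) FPKM in the IPs and 34.3 (neuron), 109 (glia) and 33.1 (fat body) in the Inputs. In the neuron IP all 3 stood below the lysate. Peb, another bulb gene, had 123 FPKM in the glia IP against 25.3 in the glia Input. PebIII was abundant in every lysate and had 14668 FPKM in the glia IP and 1591 in the glia Input. Est-6, an esterase gene, had 227 FPKM in the glia IP against 55.3 in the glia Input and 251 in the fat body IP against 67.5 in the fat body Input. Gld, with 2.51 FPKM in the glia IP against 2.56 in the glia Input, was the exception, and Met75Ca and Met75Cb were listed at 0 in every group.

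Testis and sperm genes were lower in the glia IP. Of 19 genes 13 were at least 2-fold lower in the glia IP than in its Input, where 15.9% of all genes were, and 0 were higher. Mst87F, a sperm tail gene, had 6.29 (neuron), 31.9 (glia) and 15.5 (fat body) FPKM in the IPs and 18.3 (neuron), 94.8 (glia) and 22.3 (fat body) in the Inputs. The 14 genes of the list that reached 1 FPKM had a median plain glia IP/Input ratio of 0.313, against 6.16 for the 7 duct and bulb genes. The median was 0.788 for the whole large block of seminal protein genes, whose range this ratio itself set. It was 0.803 for those of the block with at least 1 FPKM in the glia Input. In the neuron comparison the medians were 0.259 for the testis genes, 0.455 for the duct and bulb genes and 0.230 for the large block, with or without its lower genes. Of the gut protease genes 10 of 24 were higher (background 15.5%) and 0 lower (background 10.7%) in the neuron IP. In the fat body IP 11 of 24 were higher (background 22.6%) and 0 lower (background 8.38%), and in the glia IP 0 of 26 were called in either direction.

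**Figure D4:**
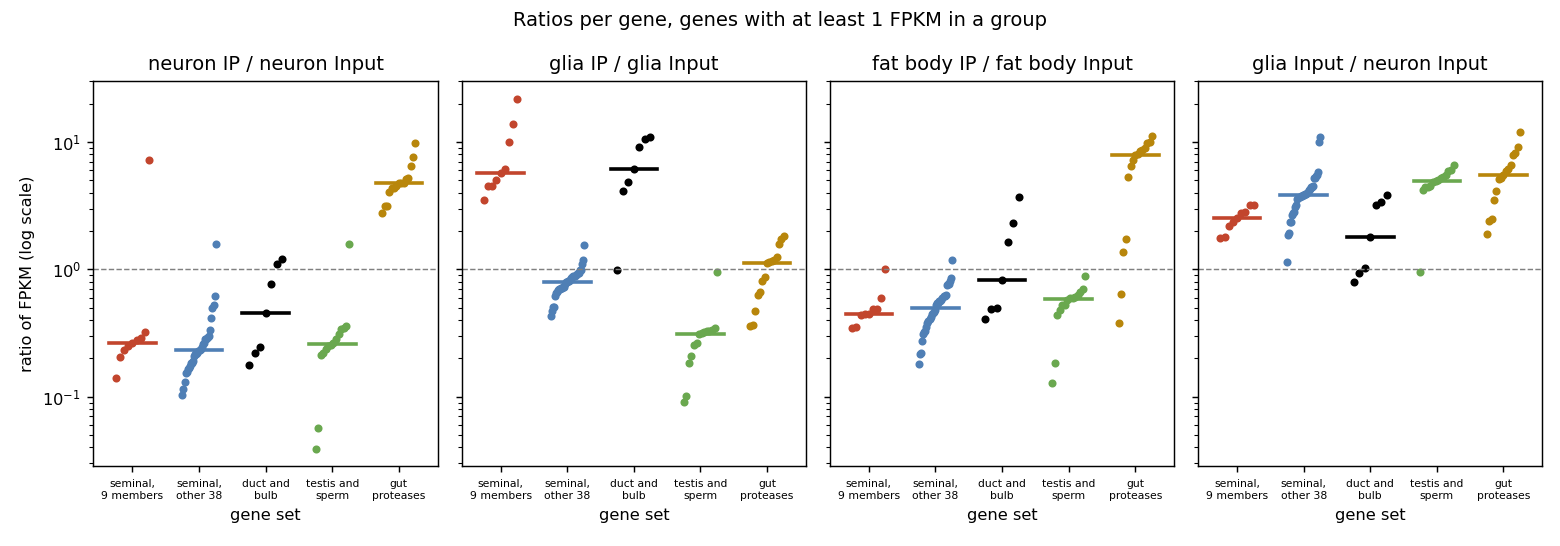
Plain ratios of FPKM on a log scale for genes that reached 1 FPKM in a group, one point per gene, with the median of each gene set as a bar; genes at 0 in a compared group are left out. In the glia IP/Input panel the median is 6.16 for the duct and bulb genes and 0.313 for the testis genes, while the place of the 9 seminal protein genes there follows from how they were chosen.

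The pathway of sex peptide in mates was examined through 11 genes of its network. In males these include the lectins lectin-46Ca and lectin-46Cb and the proteins of CG17575, CG9997, antares, aquarius, intrepid and Seminase, which bring sex peptide onto sperm, and in females fra mauro, hadley and Esp. CG17575 had 5.68 (neuron), 30.4 (glia) and 0.405 (fat body) FPKM in the IPs and 1.30 (neuron), 1.64 (glia) and 0.698 (fat body) in the Inputs. Like Acp32CD, it was higher in the neuron and glia IPs and not in the fat body IP. lectin-46Ca had 3.48 (neuron), 16.2 (glia) and 0.468 (fat body) FPKM in the IPs and 2.84 (neuron), 2.07 (glia) and 2.51 (fat body) in the Inputs, and lectin-46Cb followed it. Neither lectin was higher in the glia Input than in the other Inputs. The genes CG9997, CG14061 (aquarius), CG12558 (intrepid), CG10586 (Seminase) and CG30488 (antares) stayed under 1 FPKM in every group. In all, 5 of the 11 were at least 2-fold higher in the glia IP (background 15.1%), these 3 with Esp and hadley (CG5630), and fra mauro (CG3239) was lower (background 15.9%). CG3239 was higher in the fat body IP, at 116 FPKM, or 5.79 times the fat body Input.

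The receptor side of the pathway is known from neurons and the female tract. SPR, the sex peptide receptor gene, had 3.22 (neuron), 11.0 (glia) and 5.24 (fat body) FPKM in the IPs and 7.81 (neuron), 5.37 (glia) and 7.35 (fat body) in the Inputs. Mip, which encodes the myoinhibitory peptides that also bind this receptor, had 169 (neuron), 3.39 (glia) and 6.77 (fat body) FPKM in the IPs and 14.9 (neuron), 13.7 (glia) and 16.8 (fat body) in the Inputs. Of 4 transcription factor genes known from the accessory gland, dve alone reached 5 FPKM in a group, and prd stayed under 0.5. The highest group was the glia Input for prd, the glia IP for Abd-B and dve, and the neuron IP for Poxn. In the Inputs dve had 4.85 (neuron), 4.03 (glia) and 4.21 (fat body) FPKM.

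Between the IPs, the authors' deposited q-values gave calls mainly where glia was compared. Of 47 genes, 28 passed a q under 0.05 between the neuron and glia IPs in the authors' deposited table, and each was lower in the neuron IP (background 13.5%). Between the glia and fat body IPs 24 of 47 passed in the authors' deposited table, each higher in the glia IP (background 10.7%). Of these, 14 had a q under 0.01, a cut for which no background is given here. Between the neuron and fat body IPs 1 of 46 passed in the authors' deposited table, Acp32CD, which was higher in the neuron IP (background 7.8% higher and 9.79% lower) with a q of 0.000861. The 3 comparisons share their groups, so they are not independent of one another.

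The deposited q-values did not follow the size of the ratio closely. For 44 of the 46 genes above 0 in both IPs the glia IP was at least 5 times the neuron IP, and of these 28 had a q under 0.05 and 16 did not in the authors' deposited table. Acp54A1 and Sfp60F had a q of 0 between the neuron and glia IPs in the authors' deposited table. Acp70A had a q of 1.28e-05 and Mst57Db a q of 1.23e-08 in the same column of the authors' deposited table. Acp95EF, with 11.1 FPKM in the neuron IP and 219 in the glia IP, had a q of 0.917 in the authors' deposited table. Acp63F had 0.968 and Sfp87B 0.112 there, and between the glia and fat body IPs Sfp87B had 1.9e-09 in the authors' deposited table. Of the 9 genes of the small block 5 passed between the neuron and glia IPs and 7 between the glia and fat body IPs in the authors' deposited table, and of the other 38 genes 23 and 17 did. The background shares were 13.5% lower in the neuron IP and 10.7% higher in the glia IP. The 9 genes were chosen by their glia IP, which enters both comparisons, so these counts do not test a difference between the blocks.

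The 10 genes outside the set whose log2 levels over the 6 groups were most like the mean of the 47 genes had Pearson correlations of 0.959 to 0.990, a description over 6 groups that share lysates in pairs. They were BG642312, CG43392, CG15841, CG43319, CG43147, msopa, CG10177, CG42481, Act79B and PebII. CG43147 had 9.38 (neuron), 187 (glia) and 22.8 (fat body) FPKM in the IPs and 50.5 (neuron), 194 (glia) and 52.4 (fat body) in the Inputs. In the later BDGP6 annotation 5 of the 10 lie next to a seminal protein gene: CG43319 beside Acp98AB, CG43147 beside Acp70A, msopa beside Sfp79B, CG42481 beside Sfp70A4 and PebII beside Sfp60F.

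In that annotation 45 of the 47 genes were found by identifier and 2, Acp98AB and Sfp33A4, by symbol. No gene lay on the X, where 15.5% of the genes of the table lie, and 21 lay on 2L, or 44.7% against 18.9% of the table. The other 26 were spread over 2R (8), 3L (9) and 3R (9). Next to another gene of the set stood 15 of them, in the Acp26A, Acp53, Sfp24B, Sfp33A and Mst57D clusters. The longest transcripts had a median of 418 bases, against 1565 over the table, and 8 genes were shorter than 300 bases, among them Mst57Db at 195 and Sfp96F at 168. The 9 genes of the small block had a median of 399 bases and the other 38 one of 443. FPKM divides by length, and how it was set for transcripts of this length is not given in the sources used here.

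Exons of 3 genes overlap those of a gene on the opposite strand, and whether the counting used strand is not given in the sources used here. Sfp78E overlaps CG11248, which had 12.8 (neuron), 5.46 (glia) and 7.06 (fat body) FPKM in the IPs and 10.1 (neuron), 7.71 (glia) and 8.37 (fat body) in the Inputs. Sfp78E itself had 2.33 (neuron), 1.03 (glia) and 1.02 (fat body) FPKM in the IPs and 1.46 (neuron), 1.67 (glia) and 1.65 (fat body) in the Inputs, and both were highest in the neuron IP. Acp95EF overlaps Spase22-23, which had 51.7 (neuron), 79.8 (glia) and 191 (fat body) FPKM in the IPs and 35.5 (neuron), 37.5 (glia) and 38.4 (fat body) in the Inputs, an order unlike that of Acp95EF. Sfp78E also overlaps the noncoding RNA gene CR43978. The third gene, Sfp84E, overlaps Os-C, which had 0.468 to 1.38 FPKM over the groups, where Sfp84E had 0.0174 to 0.318. The part of shared reads in these values was not tested.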

How the data were processed

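Polyadenylated RNA from the 12 IP and Input samples was sequenced in biological duplicates, with the IP done in 4 technical replicates, per the labels' protocols. Per the submitters' processing notes, TopHat2 2.0.6, Cufflinks 2.0.2, Cuffdiff 2.0.2 and the BDGP5 build were used; the annotation and the scaling between libraries are not given in the sources used here. The authors deposited 1 table with 6 FPKM columns, each combining 2 replicates, and 3 columns of q-values for pairs of IPs. The depth per sample is unknown, so no interval or test of differences was computed.

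Log2 ratios used a pseudocount of 1 FPKM. Calls needed 2-fold, or the authors' q under 0.05 with direction read from FPKM. Background shares apply the same rule to all genes. Median scaling set the median log2 ratio of each column to the mean of all columns to 0 over 5599 genes with at least 5 FPKM in every column; total scaling equalised sums without 93 ribosomal protein genes. They shifted log2 IP/Input by -0.52 and -0.58 for neurons, -0.47 and -0.75 for glia and -0.80 and -1.49 for the fat body. Seminal protein genes with at least 5 FPKM in a group are given with all 6 values. Neighbours, exon overlaps, chromosome arms and transcript lengths came from the BDGP6 annotation, matched by identifier or, for 2 genes, by symbol, and its coordinates are not printed because the files use BDGP5. The genes and lists were chosen with earlier results of these data known. Python 3.11.15, numpy 2.4.6 and pandas 2.3.3 were used, with matplotlib 3.10.9. The call rule was tested on simulated data.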

Additional observations from a re-analysis of the deposited data

Results flagged for a closer look

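For 6 genes the IP lay at least 2-fold above the Input in glia and at least 2-fold below it in another cell type, and the size of that difference in log2 IP/Input is given here. Between glia and neurons it was 3.55 for Acp24A4, 5.65 for Acp54A1, 3.16 for Sfp24Bb, 4.37 for Sfp60F, 4.34 for Sfp87B and 4.23 for Sfp93F. Between glia and the fat body it was 3.57 for Sfp87B. Each group is 1 value combined over both replicates, so these differences were not tested.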

How the results depend on the processing

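No paired analysis was possible because the authors combined both replicates of each group into 1 column, and for the same reason no replicate could be left out. A pseudocount of 0.1 FPKM in place of 1 raised the genes called lower in the neuron IP to 35 (median log2 -1.73), lower in the fat body IP to 18, lower in the glia IP to 1, higher in the glia Input to 40 against the neuron Input and 40 against the fat body Input, and higher in the neuron than the fat body Input to 1. With genes under 5 FPKM in both compared groups left out, 12 were lower in the neuron IP (median -1.75). Median scaling gave 2 genes lower in the glia comparison and 19 in that of the fat body. Total scaling gave 11 and 27, with medians of -1.05 in the neuron and -1.18 in the fat body comparison. A q under 0.01 left 14 genes higher in the glia than the fat body IP. Shares of all genes at the pseudocount of 0.1 FPKM, with the 5 FPKM filter or at this q are not given here. The counts at those settings therefore cannot be set against a background. Without Mst57Db the ratio of summed FPKM was 2.09 for glia and 0.495 for the fat body. With all 47 genes, taken as a share of all FPKM, it was 0.179 for the fat body. Against the mean of the neuron and fat body Inputs, a setting chosen after seeing the data, 28 genes were higher in the glia IP (background 12.7%) and the median was 1.23, on the other side of 0 from the -0.18 against the glia Input. The genes called against their own Input were all called in the same direction with a pseudocount of 0.1 FPKM and under both scalings. The low genes are limited by an unknown depth.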
